A study of Mus musculus with 12 samples.

Results

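The 8 genes described here, Trem2, Apoe, Gpnmb, Spp1, Fabp5, Lpl, Cd9 and Lgals3, are usually grouped as the programme of lipid-associated macrophages. They were taken by name from the 32285 genes of each count matrix, by a rule that sets no threshold on a measured value, and all 8 were found in all 6 libraries. The study followed mouse tumours over time, in a series whose title concerns melanoma rejection and tumour immune evasion, and sequenced the live cells of each tumour with a droplet method that counts RNA molecules as unique molecular identifiers (UMIs) at the 5′ end. Antibody hashtags marked the tumour each cell came from.

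The control group held lines 15 and 18, labelled as controls of the Mif knockout, and the knockout group held lines 19 and 24, in which Mif, a secreted cytokine, was targeted. The titles of all libraries carry the name SCC35, which the groups thus share, without saying what it stands for. A hash sheet gave the line and the day of each hashtag. After 2 hashtags with almost no counts were left out, 21 control and 21 knockout tumours remained, with 7, 11, 12 and 12 tumours of days 0, 6, 10 and 16. 3 further tumours of days 6, 10 and 16 were entered as WT; they belong to neither group and are given as values only. Each line had 1 library of its own, with up to 2 tumours per day, and the remaining tumours were in 2 mixed libraries, 1 with lines 15, 18 and 19 and 1 with lines 18, 24 and WT. Day 0 was present only in the libraries of single lines, with 3 control tumours (2 of line 15 and 1 of line 18) and 4 knockout tumours (2 each of lines 19 and 24). The host's strain and age, the guide, whether a line is 1 clone, and what day 0 stands for were not stated in what was available here; each hashtag of a line and day, day 0 included, is called a tumour below. All differences between the groups are therefore differences between 2 lines and 2 other lines, and the p-values below measure the spread between tumours, not between independent knockouts.

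Lipid-associated macrophages arise in fat tissue, arteries, brain and tumours where phagocytes take up lipid and cell debris. TREM2 is a surface receptor that binds lipids and lipoproteins and signals through the adaptor Tyrobp. The other members act around it: Apoe is a secreted carrier of cholesterol, Lpl is a secreted lipase that frees fatty acids from lipoproteins, and Fabp5 carries fatty acids inside the cell. Gpnmb is a glycoprotein of lysosomes and the cell surface that melanocytic cells also make, under the factor Mitf. Spp1 (osteopontin) is a secreted ligand of integrins and Cd44, Cd9 is a tetraspanin of the cell surface, and Lgals3 (galectin-3) is a lectin that binds damaged membranes and glycoproteins. Osteoclasts and several tumour cell types also make Spp1, Gpnmb and Cd9.

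All members are protein-coding genes. In GENCODE M21 coordinates on mm10, Trem2 (ENSMUSG00000023992) lies at chr17:48346401-48354147 on the plus strand and Apoe at chr7:19696109-19699188 on the minus strand. Gpnmb lies at chr6:49036546-49070929 (plus), Spp1 at chr5:104435118-104441050 (plus) and Fabp5 at chr3:10012548-10016607 (plus). Lpl lies at chr8:68880491-68907448 (plus), Cd9 at chr6:125460266-125494791 (minus) and Lgals3 at chr14:47367751-47386160 (plus). The annotation also holds similar copies named Fabp5l2 and Cd9-ps, so the counts of Fabp5 and Cd9 are uncertain to the extent that reads were shared with them.

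RefSeq gave 9 promoter windows for 6 of the members on GRCm38.p6, each with 250 bases before and 50 after a transcription start. 3 windows are shown, from the members whose levels separate the cell classes below: Gpnmb and Spp1, which were highest in the tumour lines' own cells, and Trem2, which was far higher in the phagocyte classes than in line cells. Capitals mark matches to the motifs that were searched on both strands, and each sequence runs 5′ to 3′ on the plus strand.
Gpnmb, chr6:49036268-49036567: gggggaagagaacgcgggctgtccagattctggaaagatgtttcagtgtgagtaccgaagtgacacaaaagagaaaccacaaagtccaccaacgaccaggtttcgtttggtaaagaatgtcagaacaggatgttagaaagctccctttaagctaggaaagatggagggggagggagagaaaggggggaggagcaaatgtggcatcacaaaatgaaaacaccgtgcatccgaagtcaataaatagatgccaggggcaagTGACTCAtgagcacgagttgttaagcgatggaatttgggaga
Spp1, chr5:104434861-104435160: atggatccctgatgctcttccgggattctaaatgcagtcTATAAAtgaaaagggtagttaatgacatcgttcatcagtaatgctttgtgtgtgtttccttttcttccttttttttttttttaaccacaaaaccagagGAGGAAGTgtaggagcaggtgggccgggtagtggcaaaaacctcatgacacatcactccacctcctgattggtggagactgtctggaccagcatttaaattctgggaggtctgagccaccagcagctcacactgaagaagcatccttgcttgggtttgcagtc
Trem2, chr17:48346151-48346450: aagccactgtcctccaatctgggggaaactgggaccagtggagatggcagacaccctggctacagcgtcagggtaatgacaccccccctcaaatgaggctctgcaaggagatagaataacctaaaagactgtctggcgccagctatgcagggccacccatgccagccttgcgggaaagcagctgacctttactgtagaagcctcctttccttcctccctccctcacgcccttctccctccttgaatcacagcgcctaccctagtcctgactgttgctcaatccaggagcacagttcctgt
The Gpnmb window held the AP-1 letters TGAGTCA on the minus strand at base 259, which is 9 bases after the start, and 5.2% of the 32851 windows of all genes held these letters. The Spp1 window held the PU.1 letters GAGGAAGT at base 138, found in 3.2% of all windows, and the TATA box letters TATAAA at base 40, found in 13.6%. No motif searched was found in the Trem2 window. CACGTG, the E-box bound by Mitf and its relatives, was in 7.15% of all windows and in none of the 9 windows of the members. The GC box letters GGGCGG were in 35.7% of all windows and in those of Cd9 and Lgals3. A match is a description of letters and no evidence of binding.

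After filtering, 163866 cells remained, of which 100459 carried 1 hashtag, and 13716 of 149440 distinct barcodes occurred in 2 or more libraries. The libraries held 151385933 to 239699029 gene UMIs. Mif in line cells had a median of 2432 CPM (the UMIs of a sum brought to the same total in every tumour) in line 15 and 2180 in line 18, against 53.3 in line 19 and 420.4 in line 24, with no overlap between the groups, and 2465 in the WT tumours. The line cells did not carry the defining genes of pigment cells: Tyr was at 0 in all 42 tumours, Dct was at 0 in 40 and Mlana in 33, Tyrp1, Pmel, Sox10 and S100b had medians of at most 0.112 CPM, and Mitf had a median of 11.7 CPM (6.59 to 22.6). They are therefore called line cells and not melanoma cells.

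Cells were classed without any of the 8 genes. C1q macrophages were cells of the macrophage- and monocyte-like clusters with at least 5 UMIs of C1qa, C1qb and C1qc, and monocytes were cells of the same clusters with at most 2 C1q UMIs and at least 2 of monocyte genes. Osteoclast-like cells had at least 3 UMIs each of Ctsk and Acp5. Line cells were the cells of clusters that no host marker list named, with low Ptprc, a leukocyte gene. Its CPM there was at most 10% of that in the macrophage- and monocyte-like clusters. No marker of the tumour lines themselves was used. These classes held 8136, 4381, 805 and 64079 cells, those of the WT tumours included. UMIs were summed per tumour and class, kept from 20 cells upward (10 for osteoclast-like cells), and scaled to CPM, which is compared below only within a gene. At days 6 to 16, 35 tumours gave a sum for C1q macrophages and for line cells, 32 for monocytes and 14, all of them control tumours, for osteoclast-like cells. Day 0 tumours held only 1 C1q macrophage in all. The summed depth had a median of 470200 UMIs per tumour in C1q macrophages (range 58826 to 2690344), 115616 in monocytes, 417670 in osteoclast-like cells and 11334916 in line cells. In dissociated tissue, RNA freed from broken cells gives UMIs in cells that do not express a gene. T-cell-like cells of the same tumours were therefore carried along as a background class. They numbered 5820 with the WT tumours included, and 32 tumours of the 4 lines gave a sum. Whether T-cell-like cells make any of the 8 genes themselves was not tested. Their level is therefore not a measure of free RNA alone.

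Levels were ranked over C1q macrophages, monocytes, osteoclast-like cells, line cells and T-cell-like cells only. By their order, 3 members fitted the name of the gene set: Trem2, Apoe and Fabp5 had their highest median in C1q macrophages. Lpl had its highest in osteoclast-like cells. Spp1, Cd9 and Gpnmb were highest in line cells, and Lgals3 was highest in monocytes, close to C1q macrophages and line cells.

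Trem2 had a median of 201 CPM in C1q macrophages (66.9 to 393 over tumours), 125 in osteoclast-like cells (80.7 to 221.5) and 51.2 in monocytes (0 to 166). It was 1.02 CPM in line cells (0.187 to 4.26) and was listed at 0 in T-cell-like cells of 21 of 32 tumours. The ranges of the phagocyte classes overlapped, while no line-cell value reached the lowest C1q value. Each cell of at least 1000 UMIs was thinned to 1000. Of these, 19.8% of C1q macrophages, 12.3% of osteoclast-like cells, 4.08% of monocytes and 0.189% of T-cell-like cells had a Trem2 UMI. Cells under 1000 UMIs were left out: 331 of 8136, 7 of 805, 755 of 4381 and 1590 of 5820 in that order. The unthinned shares, here and below over all cells of a class, were 42.3%, 44.1%, 6.28% and 0.361%. Median depths were 2674, 6370, 1533 and 1323 UMIs per cell.

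Apoe was 3594 CPM in C1q macrophages (521 to 7239), 688 in osteoclast-like cells (141 to 1793), 608 in monocytes (233 to 1091), 41.4 in T-cell-like cells (0 to 152) and 8.65 in line cells (1.59 to 42.8). At day 0 line-cell Apoe was 11.7 and 13.7 CPM in line 24 and 1.94 to 5.58 CPM in the other lines. Unthinned, 6.15% of line cells and 6.5% of T-cell-like cells had an Apoe UMI, at median depths of 7039 and 1323 UMIs per cell. The part of free RNA in the line-cell level was not tested. On the CPM scale Apoe was higher in line cells than in T-cell-like cells in only 2 of 32 tumours. Trem2 was near 0 in both classes: summed over these tumours it stood at 0.929 CPM in line cells and 2.26 CPM in T-cell-like cells, while it was higher in line cells in 22 of 32 tumours.

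Fabp5 was 810 CPM in C1q macrophages (249.5 to 2317), 422 in monocytes (101 to 1144), 264 in osteoclast-like cells (171 to 549), 182 in line cells (112 to 299) and 88.2 in T-cell-like cells (32.2 to 236). Neighbouring classes in this order overlapped. Lpl was 253.5 CPM in osteoclast-like cells (125 to 361), 56.0 in C1q macrophages (17.0 to 169.6), 26.3 in monocytes (0 to 390.3), 6.36 in line cells (2.45 to 20.6) and listed at 0 in T-cell-like cells of 18 of 32 tumours. Thinned to 1000 UMIs, 20.3% of osteoclast-like cells, 4.92% of C1q macrophages and 0.473% of T-cell-like cells had an Lpl UMI (unthinned 63.6%, 11.8% and 0.705%).

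Spp1 behaved differently, with 9350 CPM in line cells (3318 to 14450) and close medians elsewhere: 1550 in monocytes (445.5 to 4802), 1272 in osteoclast-like cells (631 to 5144), 1138 in T-cell-like cells (177 to 2063) and 1010 in C1q macrophages (505.5 to 2776). The lowest line-cell values overlapped the highest of monocytes and osteoclast-like cells, and no value of C1q macrophages or T-cell-like cells reached them. Cd9 was also highest in line cells, with 1383 CPM in line cells (747 to 2240), 593 in osteoclast-like cells (469 to 1399), 319 in monocytes (120.5 to 689), 217 in C1q macrophages (80.6 to 477.5) and 206 in T-cell-like cells (41.5 to 467). Gpnmb was 63.2 CPM in line cells (17.2 to 182), 43.9 in osteoclast-like cells (23.5 to 87.4), 32.7 in C1q macrophages (7.8 to 128), 27.7 in monocytes (0 to 159) and 20.1 in T-cell-like cells (0 to 55.3), with overlap between all classes. Lgals3 was 2896 CPM in monocytes (1492 to 4834), 2420 in C1q macrophages (881 to 4564), 2139 in line cells (1097 to 2814), 1816 in osteoclast-like cells (1529 to 2623) and 434 in T-cell-like cells (127 to 758). T-cell-like cells were the only class whose Lgals3 range did not overlap the others.

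**Figure D1:**
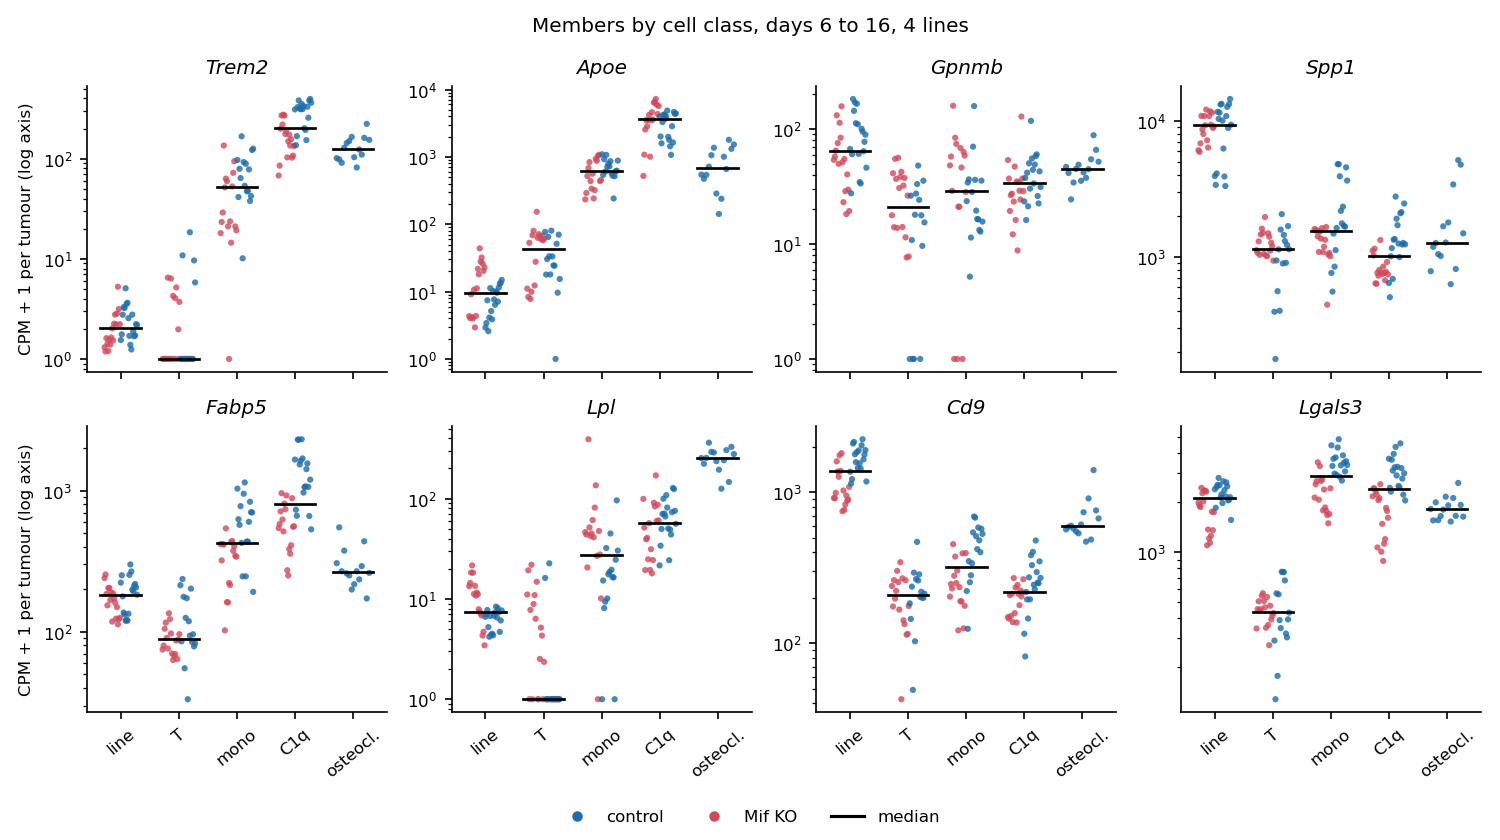
Levels of the 8 genes by cell class in tumours of days 6 to 16. Each point is the CPM of 1 tumour (plus 1, log axis), control tumours in blue and knockout tumours in red, and the black bar is the median of a class; Trem2 and Apoe stand highest in C1q macrophages, Lpl in osteoclast-like cells, and Spp1 and Cd9 in line cells.

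In the median tumour of days 6 to 16, C1q macrophages made up 9.2% of the cells and held 69.7% of the Trem2 UMIs and 74.8% of the Apoe UMIs. Line cells made up 66.6% of the cells and held 94.2% of the Cd9 UMIs, 93.6% of the Spp1 UMIs, 90.7% of the Gpnmb UMIs, 84.4% of the Lgals3 UMIs and 64.9% of the Fabp5 UMIs. They were also deeper, with a median of 7039 UMIs per cell against 2674 in C1q macrophages. A share of UMIs above the share of cells is therefore no sign of a higher CPM. The share of all UMIs in each class is not given here. Lpl was the most spread, with 36.7% in line cells, 15.5% in C1q macrophages and 9.47% in fibroblast-like cells.

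The members were tested against the T-cell-like background within tumours with edgeR's quasi-likelihood test, as in all comparisons below, with Benjamini-Hochberg adjustment over all genes tested and a threshold of 0.05. In C1q macrophages against T-cell-like cells (32 tumours, 4233 genes tested), 75.5% of genes were called, 34.9% higher and 40.5% lower in macrophages. Of the 8 members 6 could be tested, 4 were called higher and none lower, and their median log2 fold change was 2.71 against -0.07 over all genes. Apoe stood 6.52 higher on the log2 scale, Trem2 6.20, Fabp5 3.02 and Lgals3 2.39. Trem2 was at 0 in T-cell-like cells of 21 of 32 tumours and at most 17.4 CPM there. It entered the test through its level in macrophages, so it could not have been called lower. The count of 4 and the median of the members include it. Spp1 (-0.07, SE 0.11, adjusted p = 0.577) and Cd9 (0.17, higher in 16 of 32 tumours) did not pass. Cd9 passed as higher in macrophages in 8 of 14 alternatives. Among them were the Chil3 cluster of macrophages (0.59, adjusted p = 8.308e-06) and the fit without line 19 (0.38, adjusted p = 0.00235). The Cd9 sign changed in 2 others, and in the Fcrls cluster of macrophages Cd9 stood at -0.38. Spp1 passed as lower in macrophages in 3: without line 15 (-0.26, adjusted p = 0.0146), without the cells of most UMIs (-0.30, adjusted p = 0.00445) and in the Fcrls cluster (-0.30, adjusted p = 0.0361). The Spp1 sign changed in 8 of the 14, among them the Chil3 cluster (0.25). For both genes, fits of changed sign were counted apart, whether or not they passed. Spp1 was higher in macrophages in 14 of 32 tumours, and its summed level in T-cell-like cells was 93.4% of that in C1q macrophages; for Cd9 this was 81.8% and for Gpnmb 65.4%. For Trem2 it was 0.861% and for Apoe 1.14%, about the same as for the macrophage genes C1qa (0.755%), Lyz2 (1.01%) and Csf1r (1.2%). A Spp1 UMI was found in 53.7% of thinned C1q macrophages, 61.2% of T-cell-like cells and 63.8% of natural-killer-like cells. The unthinned shares were 81.3%, 77.4% and 81.5%, at median depths of 2674, 1323 and 1758 UMIs per cell. CPM and thinned shares bring sums and cells to the same total, but do not remove a part of free RNA that differs with depth. Whether macrophages held Spp1 beyond free RNA was not tested. On the CPM scale, no Spp1 difference between C1q macrophages and T-cell-like cells was called over all lines. The lines differed in this: mean Spp1 in C1q macrophages and T-cell-like cells was 1265 and 743 CPM in line 15 and 1600 and 1334 in line 18, against 909.7 and 1347 in line 19 and 779.7 and 1182 in line 24, a difference between the groups that was not tested. Gpnmb and Lpl were too low for this test; Lpl was higher in macrophages in 32 of 32 tumours and Gpnmb in 23.

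Monocytes differed from T-cell-like cells in all 5 members that could be tested (30 tumours, 2305 genes; 78.4% called, 38.7% higher and 39.7% lower). Apoe stood 3.85 higher on the log2 scale, Lgals3 2.71, Fabp5 2.15, Cd9 0.72 and Spp1 0.57, the latter pair in 24 and 23 of 30 tumours. The T-cell-like level was 68.9% of the monocyte level for Spp1, 62.5% for Cd9 and 19.2% for Fabp5. In osteoclast-like cells it was 64.0% for Spp1, 40.2% for Gpnmb, 32.9% for Cd9 and 0.724% for Lpl. Both comparisons with T-cell-like cells were chosen after the data were seen.

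C1q macrophages were compared with monocytes of the same tumour. The receptor Trem2, the lipid carrier Apoe, the fatty-acid carrier Fabp5 and the lipase Lpl were higher in C1q macrophages, while Spp1, Cd9 and Lgals3 had the higher CPM in monocytes. In this comparison (32 tumours, 3997 genes) 60.1% of genes were called, 29.9% higher and 30.3% lower in macrophages, and of the 8 members 4 were higher, 3 lower and 1 not called (median 0.42, all genes 0.01). Apoe was 5.11-fold higher (log2 2.35, SE 0.11, adjusted p = 2.413e-23) and Trem2 3.8-fold higher (log2 1.93, SE 0.11, adjusted p = 1.719e-19), each in 32 of 32 tumours. Fabp5 was 1.93-fold higher (log2 0.95, SE 0.11) in 30 of 32 tumours and Lpl 1.92-fold higher (log2 0.94, SE 0.23, adjusted p = 0.000549) in 23. Cd9 was 1.51-fold lower (log2 -0.60, SE 0.08), Spp1 1.5-fold lower (log2 -0.58, SE 0.08) and Lgals3 1.22-fold lower (log2 -0.29, SE 0.06), and they were higher in only 5, 3 and 7 of 32 tumours. For Spp1 and Cd9 the T-cell-like level was 93.4% and 81.8% of the C1q level, and 68.9% and 62.5% of the monocyte level. Unthinned, 81.3% of C1q macrophages and 78.8% of monocytes had a Spp1 UMI, and 38.3% and 32.7% a Cd9 UMI. Median depths were 2674 and 1533 UMIs per cell. The part of free RNA and depth in these differences was not tested. C1q macrophages fell into a cluster led by Fcrls and a cluster led by Chil3, described further below; with those of the Chil3 cluster alone, the differences of Cd9 (-0.10, adjusted p = 0.179) and Lgals3 (-0.11, adjusted p = 0.148) were no longer called. Gpnmb did not pass (log2 -0.11, SE 0.17, adjusted p = 0.620).

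Of 13 lysosomal and lipid-breakdown genes, 10 were higher in C1q macrophages, among them Grn, the progranulin precursor (log2 1.10), and Ctsb, a cathepsin protease (1.09); the cholesterol-transfer protein Npc2 was lower (-0.30). Of 6 testable genes of cholesterol efflux, 4 were higher, led by the phospholipid transfer protein Pltp (2.04) and Nr1h3, the sterol sensor LXRα (1.58), and 2 were lower, Apoc2 (-1.46) among them. Of 7 genes of TREM2 signalling and shedding none was higher and 3 were lower, including the adaptor Tyrobp (-0.28) and the kinase Syk (-0.51). Of 8 genes of lipid uptake and storage, 2 were higher and 3 lower. Among 6 testable Spp1 receptors, 3 were higher (Itga9, 2.89) and 2 lower (Cd44, -0.82).

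Osteoclast-like cells, in which Ctsk and Acp5 serve bone resorption in their best-known setting, had a different combination of members than C1q macrophages. Lpl and Cd9 were higher there, and Trem2, Apoe, Fabp5 and Lgals3 were lower. The comparison rests on 14 control tumours (5494 genes; 60.6% called, 32.2% higher and 28.4% lower), since the knockout tumours held only 9 such cells against 786 in control tumours, and line 24 held none. Of the 8 members 2 were higher, 4 lower and 2 not called (median -0.36, all genes 0.04). Lpl was 3.42-fold higher (log2 1.77, SE 0.12, adjusted p = 2.042e-13) and Cd9 2.4-fold higher (log2 1.27, SE 0.11, adjusted p = 4.665e-11), both in 14 of 14 tumours. Fabp5 was 5.04-fold lower (log2 -2.33, SE 0.13), Apoe 4.65-fold lower (log2 -2.22, SE 0.15) and Trem2 2.53-fold lower (log2 -1.34, SE 0.09), and each was higher in 0 of 14 tumours. Lgals3 was 1.68-fold lower (log2 -0.74, SE 0.08) and higher in 1 of 14. Gpnmb (0.03, SE 0.18) and Spp1 (0.04, SE 0.17) did not pass, and Spp1 stood at 0.84 under another way of calling hashtags and at -0.62 (adjusted p = 0.00153) against macrophages of the Chil3 cluster alone.

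Among the related genes, 4 of 5 testable efflux genes were lower in osteoclast-like cells, with the cholesterol exporter Abca1 at -3.05 and Nr1h3 at -2.42 on the log2 scale. All 4 called genes of lipid uptake and storage, of 7 tested, were lower, led by the scavenger receptor Msr1 (-3.33). Lysosomal genes split, with 4 higher (Cd63 0.49) and 7 lower (Lamp1 -1.69, Grn -1.50). Of the Spp1 receptors, Itgav, the integrin subunit that osteoclasts use on bone, was higher (1.16) and Itga9 lower (-4.23). Mitf, a factor of osteoclast and melanocyte development, was higher (0.94) and its relative Tfe3 was lower (-0.65), both MiT/TFE factors tested there.

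Against the line cells of the same tumour, C1q macrophages had far more Apoe (467-fold, log2 8.87, SE 0.22) and Trem2 (257-fold, log2 8.01, SE 0.18). Trem2 was at most 4.26 CPM in line cells, so it entered this test through its level in macrophages. Lpl was 11.7-fold and Fabp5 5.95-fold higher, all 4 in 35 of 35 tumours, and Lgals3 was 1.4-fold higher in 24. Spp1 was 6.63-fold lower (log2 -2.73, SE 0.11) and Cd9 5.08-fold lower (log2 -2.35, SE 0.09), both higher in 0 of 35 tumours, and Gpnmb was 1.59-fold lower (log2 -0.67, SE 0.17) and higher in 7. In all, 5 of 8 members were higher and 3 lower (median 1.53, all genes -0.06), where 81.8% of 10095 genes were called, 38.9% higher and 42.8% lower. With relative log expression scaling in place of TMM, the share of higher calls among all calls went from 47.6% to 36.6% and the median of all genes went from -0.06 to -0.28 on the log2 scale; Lgals3, the member with the smallest difference, then stood at 0.27, so its direction held. All 7 genes of TREM2 signalling were higher in macrophages (Tyrobp 9.36), as were 11 of 13 lysosomal genes (Cd68 7.79), 8 of 11 genes of lipid uptake (Msr1 8.38) and 9 of 11 of cholesterol efflux.

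In C1q macrophages, Trem2, Fabp5, Lgals3 and Spp1 were lower in the Mif knockout tumours than in control tumours, by 1.56- to 2.16-fold. No member was higher. Over 18 control and 17 knockout tumours (7350 cells, 4922 genes), with day as a term, 38.1% of all genes were called, 19.9% higher and 18.2% lower in the knockout group. Of the 8 members 4 were lower and 4 did not pass, with a median of -0.48 against -0.00 over all genes.

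Fabp5, the fatty-acid carrier, had a median of 1663 CPM in line 15 (663.5 to 2317) and 1065 in line 18 (531 to 1561), against 713 in line 19 (514 to 960) and 398 in line 24 (249.5 to 883.5). All 17 knockout tumours lay under the control median, and 14 of 18 control tumours lay above every knockout tumour. The WT tumours stood at 724, 729 and 744 CPM, near line 19. The fitted difference was -1.11 on the log2 scale (SE 0.18, adjusted p = 7.637e-06).

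Trem2 was 311.5 CPM in line 15 (135.5 to 380.5), 329 in line 18 (152 to 393), 198 in line 19 (66.9 to 274) and 133.5 in line 24 (101 to 172). Again all 17 knockout tumours were under the control median; 12 of 18 control tumours were above every knockout tumour, and 7 of 17 knockout tumours were below every control tumour. The WT tumours gave 110, 216 and 245.5 CPM, the lowest of which lay under every control tumour and within the knockout range. The difference was -0.77 (SE 0.14, adjusted p = 5.879e-05), a 1.7-fold lower level.

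Lgals3, the lectin, was 3269 CPM in line 15 (2324 to 4343), 2787 in line 18 (2055 to 4564), 2233 in line 19 (1064 to 2579) and 1338 in line 24 (881 to 1852), and 1657, 2156 and 2365 in the WT tumours. 9 of 17 knockout tumours lay below every control tumour, line 24 with its whole range. The difference was -0.71 (SE 0.13, adjusted p = 6.704e-05), or 1.64-fold. In T-cell-like cells the Lgals3 medians were 389 CPM (control) and 448 CPM (knockout), and those of Fabp5 were 95.0 and 85.6 CPM.

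Spp1, the secreted ligand, was 1161 CPM in line 15 (505.5 to 2776), 1268 in line 18 (998 to 2469), 803 in line 19 (634 to 1330) and 764 in line 24 (673 to 918), and 669, 785 and 1129 in the WT tumours. Control tumours spread more widely, and 8 of 18 exceeded every knockout tumour. The difference was -0.65 (SE 0.15, adjusted p = 0.00109), or 1.56-fold; the background class had Spp1 medians of 1136 CPM in control and 1196 CPM in knockout tumours, and its part in the Spp1 difference was not tested.

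**Figure D2:**
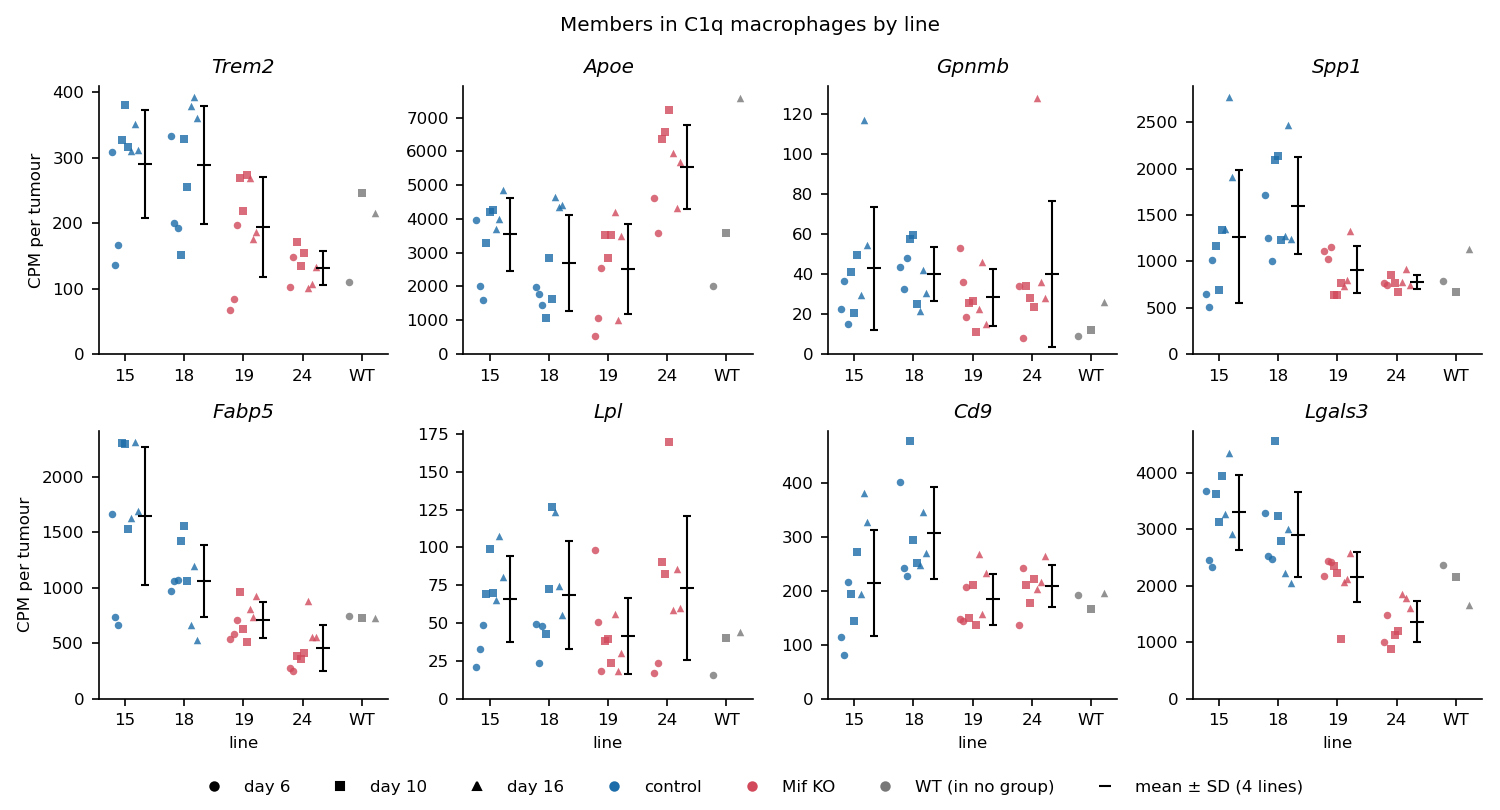
CPM of the 8 genes in C1q macrophages per tumour (points, marker by day) in each line at days 6 to 16, with the mean and SD of each of the 4 lines beside the points; WT tumours are shown as points alone. The knockout lines 19 and 24 stand below lines 15 and 18 for Trem2, Fabp5, Lgals3 and Spp1, with overlap, while Apoe is highest in line 24.

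Apoe did not pass (0.41, SE 0.22, adjusted p = 0.149), and its knockout lines lay apart. It was 3969 CPM in line 15 (1590 to 4869), 1989 in line 18 (1071 to 4646), 2848 in line 19 (521 to 4196) and 5823 in line 24 (3594 to 7239), so that 5 of 17 knockout tumours exceeded every control tumour. Without line 19 the difference was 0.94 (adjusted p = 0.000116), and without line 24 its sign turned (-0.25, adjusted p = 0.532). Cd9 gave -0.31 (SE 0.15, adjusted p = 0.0923; -0.55, adjusted p = 0.00323, without line 15), Gpnmb -0.17 (SE 0.27, adjusted p = 0.649) and Lpl -0.06 (SE 0.21, adjusted p = 0.846). Medians by line in the order 15, 18, 19 and 24 were 194, 269.6, 157 and 213 CPM for Cd9, 36.6, 41.9, 25.6 and 30.9 CPM for Gpnmb, and 69.4, 55.2, 38.4 and 71.2 CPM for Lpl.

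The 4 calls did not hold in the mixed libraries alone or with a library term. The fit of the mixed libraries alone, with 6 control and 6 knockout tumours, had no library term. The differences kept their sign there but were not called: Fabp5 -0.86 (adjusted p = 0.0771), Lgals3 -0.59 (0.110), Trem2 -0.44 (0.158) and Spp1 -0.41 (0.143). With the library as a term they were -0.82 (adjusted p = 0.0658), -0.55 (0.106), -0.37 (0.346) and -0.38 (0.393). With 1 sum per line, Fabp5 (-1.10, adjusted p = 0.0681) and Lgals3 (-0.70, adjusted p = 0.0728) were not called, and Spp1 was not called without line 24 (-0.55, adjusted p = 0.0821). Over the means of the 4 lines an exact permutation test (two-sided) cannot go below 0.333, the value it gave for Trem2, Fabp5, Lgals3, Spp1 and Gpnmb.

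The C1q macrophages of the groups also differed in makeup. The cluster led by Fcrls, Pf4, Ms4a7, Folr2 and Mrc1 held 70.1% of the C1q macrophages of line 15, 71.4% of line 18, 39.8% of line 19, 9.54% of line 24 and 49.9% of WT, and the cluster led by Chil3, Ly6i, F10 and Clec4e held the rest. The Chil3 cluster also held 96.6% to 100% of the monocytes of each line. Within each cluster the knockout medians of the 4 genes were also lower. Trem2 was 355 CPM in control and 275 in knockout tumours in the Fcrls cluster and 184 and 124 in the Chil3 cluster; Fabp5 was 1515 and 680, and 832 and 542. Lgals3 was 2879 and 1801, and 3398 and 1930, and Spp1 was 1072 and 663, and 1756 and 835. In the Fcrls cluster Trem2 (-0.27, adjusted p = 0.233) and Spp1 (-0.54, adjusted p = 0.0655) were not called, while in the Chil3 cluster Cd9 was called lower (-0.84, adjusted p = 6.521e-06) and Apoe higher (0.84, adjusted p = 0.0150). Of macrophage genes, Csf1r had a median of 357 CPM in knockout and 345 in control tumours, Tyrobp 2699 and 2656, C1qa 2832 and 3372 and Lyz2 3844 and 4509, Cd68 was lower in the knockout group (log2 -1.08), and Cd3e was 0 in both medians. The median over tumours was 2847 UMIs per C1q macrophage in the control group and 2467 in the knockout group. The part of makeup and depth in the differences was not tested.

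Of 13 lysosomal genes tested around the members, 6 were lower in knockout C1q macrophages, 1 was higher and 6 did not pass. Cd68, the macrophage lysosomal glycoprotein, gave -1.08 and Grn -0.75, while Psap, the prosaposin precursor, gave 0.72. Of 8 testable genes of lipid uptake and storage 3 were lower, including the lipid-droplet coat protein Plin2 (-0.67) and the receptor Lrp1 (-0.32), and 3 higher, including the triglyceride-forming enzyme Dgat1 (1.78). Of 7 efflux genes, Pltp (-0.91) and Nr1h2 (-0.57) were lower and Mylip, a ubiquitin ligase, was higher (0.58). The sheddases of TREM2, Adam10 (0.32, adjusted p = 0.00895) and Adam17 (0.26, adjusted p = 0.0171), were among 3 of 7 signalling and shedding genes that were higher; none was lower. Of the Spp1 receptors, Itga4 was higher (0.77) and Itgav lower (-0.39), with 4 of 6 not called. Mitf was lower (-0.64), the receptor kinase Axl (1.39) and the integrin Itgax (1.36) were higher, and Lgals1, galectin-1, was lower (-0.71). None of the 4 partners of lipoprotein lipase was abundant enough to test.

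Monocytes showed lower Lgals3, Fabp5, Spp1 and Cd9 in the knockout tumours. Of the 5 testable members 4 were lower, 1 did not pass and none was higher (median -0.67, all genes 0.01), over 16 control and 16 knockout tumours (4009 cells, 1832 genes; 32.2% called, 15.4% higher and 16.8% lower). Lgals3 was 3678 CPM in line 15 (2858 to 4834), 3375 in line 18 (2712 to 3861), 2696 in line 19 (2076 to 3500) and 1782 in line 24 (1492 to 2434). 13 of 16 knockout tumours lay below every control tumour, and the difference was -0.59 (SE 0.10, adjusted p = 2.333e-05). Fabp5 medians were 627, 601, 367 and 359.5 CPM in lines 15, 18, 19 and 24 (-0.85, SE 0.20, adjusted p = 0.00123), and all 16 knockout tumours were under the control median. Cd9 medians were 337, 509.8, 264 and 188 CPM (-0.67, SE 0.17, adjusted p = 0.00255), and Spp1 medians 1485, 2178, 1550 and 1078 CPM (-0.67, SE 0.20, adjusted p = 0.0103). The Spp1 difference varied with the day: control and knockout medians were 1485 and 1563 CPM at day 6, 1649 and 1336 at day 10, and 4550 and 1216 at day 16. The knockout medians of the other 3 genes were lower at each day. Over all days, control and knockout monocyte medians were 1730 and 1349 CPM for Spp1, and 448 and 240 CPM for Cd9. In T-cell-like cells they were 1136 and 1196 CPM for Spp1, and 211.5 and 196 CPM for Cd9. The part of free RNA in the monocyte differences was not tested. Apoe did not pass (-0.35, SE 0.19, adjusted p = 0.166), though it was called lower in 4 of 15 alternatives, among them that without line 18 (-0.62, adjusted p = 0.0128). Trem2, Gpnmb and Lpl were too low to test. Lpl medians ran the other way, at 14.3, 18.5, 44.7 and 33.4 CPM in lines 15, 18, 19 and 24, with 2 of 16 knockout tumours under the control median.

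The monocyte calls were also sensitive to the library. With a library term Lgals3 had an adjusted p of 0.0889, Spp1 0.162, Cd9 0.174 and Fabp5 0.302, and in the mixed libraries alone Lgals3 had 0.0591, Cd9 0.0746 and Fabp5 0.495. Each of these differences kept its sign in all 15 alternatives. Over those that kept every line they ran from -0.77 to -0.36 for Lgals3, -0.94 to -0.40 for Spp1, -0.77 to -0.44 for Cd9 and -1.0 to -0.40 for Fabp5. With 1 sum per line Lgals3 was not called (adjusted p = 0.0551), and with at least 50 cells per sum Spp1 was not called (-0.40, adjusted p = 0.376). Leaving out single lines also ended calls: Fabp5 without line 15 (-0.58, adjusted p = 0.0627), Spp1 without line 18 (adjusted p = 0.129) or 24 (0.218), and Cd9 without line 18 (0.0672) or 24 (0.123). Monocytes had 1908 UMIs per cell in control and 1610 in knockout tumours. Of 10 testable lysosomal genes 5 were lower (Cd68 -0.94, Grn -0.74) and 1 higher (Psap 0.30), and of 5 genes of lipid uptake 3 were lower (Lrp1 -0.65, Msr1 -0.47). Axl was higher (1.26) and Lgals1 lower (-0.51), as in C1q macrophages of the same tumours.

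Line cells gave a mixed picture between the groups, and much of it rested on single lines. Lpl, Apoe and, through days 0 and 6, Spp1 were higher in the knockout lines, and Cd9, Fabp5 and Lgals3 were lower. Over 21 control and 21 knockout tumours, day 0 included (57675 cells, 11748 genes), 49.8% of genes were called, 25.3% higher and 24.5% lower, and of the 8 members 3 were higher, 3 lower and 2 not called (median -0.24, all genes 0.00). Lpl was 2.35-fold higher (log2 1.23, SE 0.23, adjusted p = 3.821e-05), but at days 6 to 16 its medians were 4.24, 6.36, 12.5 and 6.0 CPM in lines 15, 18, 19 and 24, so that line 24 overlapped the control lines. Without line 19 the Lpl difference was 0.10 (adjusted p = 0.538). Apoe was 2.05-fold higher (log2 1.04, SE 0.34, adjusted p = 0.00965), with medians of 3.11, 9.04, 3.31 and 23.5 CPM; without line 24 its sign turned (-0.32), and all of these medians lay below that of T-cell-like cells. The makeup of the line cells also differed. The cluster led by Aqp4 and Spon2 held 41.8% of those of line 24 and 1.57% to 14.4% of those of lines 15, 18 and 19. The cluster led by Npr3 and Ogn held 21.7% in line 24 and at most 0.066% in these 3 lines. The cluster led by Wfdc2 held 28.4% in line 19 and 0.103% to 1.94% in lines 15, 18 and 24. The part of makeup was not tested.

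Cd9 medians at days 6 to 16 were 1580, 1774, 1369 and 885 CPM in that order of lines (log2 difference -0.43, SE 0.11, adjusted p = 0.00184). Lgals3 medians were 2404, 2179, 2274 and 1306 CPM (-0.32, SE 0.11, adjusted p = 0.0119), with line 24 alone apart. Without line 24, Lgals3 (-0.01, adjusted p = 0.939), Cd9 (-0.16, adjusted p = 0.231) and Fabp5 (-0.24, adjusted p = 0.313) were not called. The Spp1 difference was 0.28 (SE 0.11, adjusted p = 0.0322) and that of Fabp5 -0.51 (SE 0.19, adjusted p = 0.0214) over all days. At days 6 to 16 the Spp1 medians were 10330, 9356, 8619 and 9213 CPM in lines 15, 18, 19 and 24, so both knockout medians stood lower there. The means were 9041, 9211, 8716 and 9360 CPM in that order, highest in line 24, and the ranges overlapped. By day, the knockout median was above the control median at days 0 and 6 and below it at days 10 (10080 and 11150 CPM) and 16. The Spp1 call was lost in 7 of 14 alternatives, among them those without line 15 (0.19, adjusted p = 0.204), 18 or 24. Gpnmb (-0.16, SE 0.26, adjusted p = 0.642) and Trem2 (-0.59, SE 0.28, adjusted p = 0.0810) did not pass; Gpnmb was called lower without line 19 (-0.93, adjusted p = 0.0157), and Trem2 without line 18 (-1.01, adjusted p = 0.00968) or 24 (-1.27, adjusted p = 0.001). None of these 6 calls held with 1 sum per line (adjusted p 0.619 to 0.709), nor with the mixed libraries alone or a library term. Over the alternatives that kept every line, the differences kept their sign. They ran from 0.26 to 0.325 for Spp1, 0.58 to 1.6 for Lpl and 0.46 to 1.09 for Apoe. For Fabp5 they ran from -0.58 to -0.17, for Cd9 from -0.49 to -0.26 and for Lgals3 from -0.39 to -0.23.

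Of the related lists in line cells, 3 of 6 testable TREM2 signalling genes were higher in the knockout lines (the phospholipase Plcg2, 1.28) and 1 was lower (Syk, -1.54). Of 13 lysosomal genes 3 were higher (Npc2, 1.44) and 3 lower (Lamp1, -0.20). Angptl4, a secreted inhibitor of Lpl, was lower (-1.21), while Lipg, endothelial lipase, was higher (0.39). Mitf (-0.48) and Tfeb (-0.33) were both lower, of 3 MiT/TFE factors tested. Among Spp1 receptors Itgb5 was higher (1.2) and Cd44 lower (-0.23).

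Over time in C1q macrophages, Trem2, Apoe and Cd9 were higher at day 16 than at day 6, by 1.39- to 1.91-fold, and no member was lower. The test compared 12 tumours of day 16 with 11 of day 6 within lines (5322 genes), and 18.6% of genes were called, 8.44% higher and 10.2% lower. Of the 8 members 3 were higher and 5 not called (median 0.53, all genes 0.00). Apoe medians were 1989 CPM at day 6, 3522 at day 10 and 4339 at day 16 (log2 difference 0.93, SE 0.21, adjusted p = 0.00238), and the Apoe call held in all 14 alternatives. Trem2 medians were 167, 262 and 289.6 CPM (0.62, SE 0.17, adjusted p = 0.00872). By group, the Trem2 medians were 197, 322 and 356 CPM in control tumours and 102, 195 and 154 CPM in knockout tumours, and every control tumour of day 16 lay between 310.4 and 393 CPM, above every knockout tumour of that day (101 to 269). Cd9 medians were 207, 211 and 256 CPM (0.48, SE 0.17, adjusted p = 0.0457). The lines were not alike: the Trem2 median of line 24 was 125 CPM at day 6 (2 tumours) and 106 at day 16 (3 tumours), while the Apoe medians were higher at day 16 in all 4 lines. For Cd9 in line 18 the mean was 290.4 and 288 CPM, but the median was higher at day 16 (243 and 270 CPM).

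**Figure D3:**
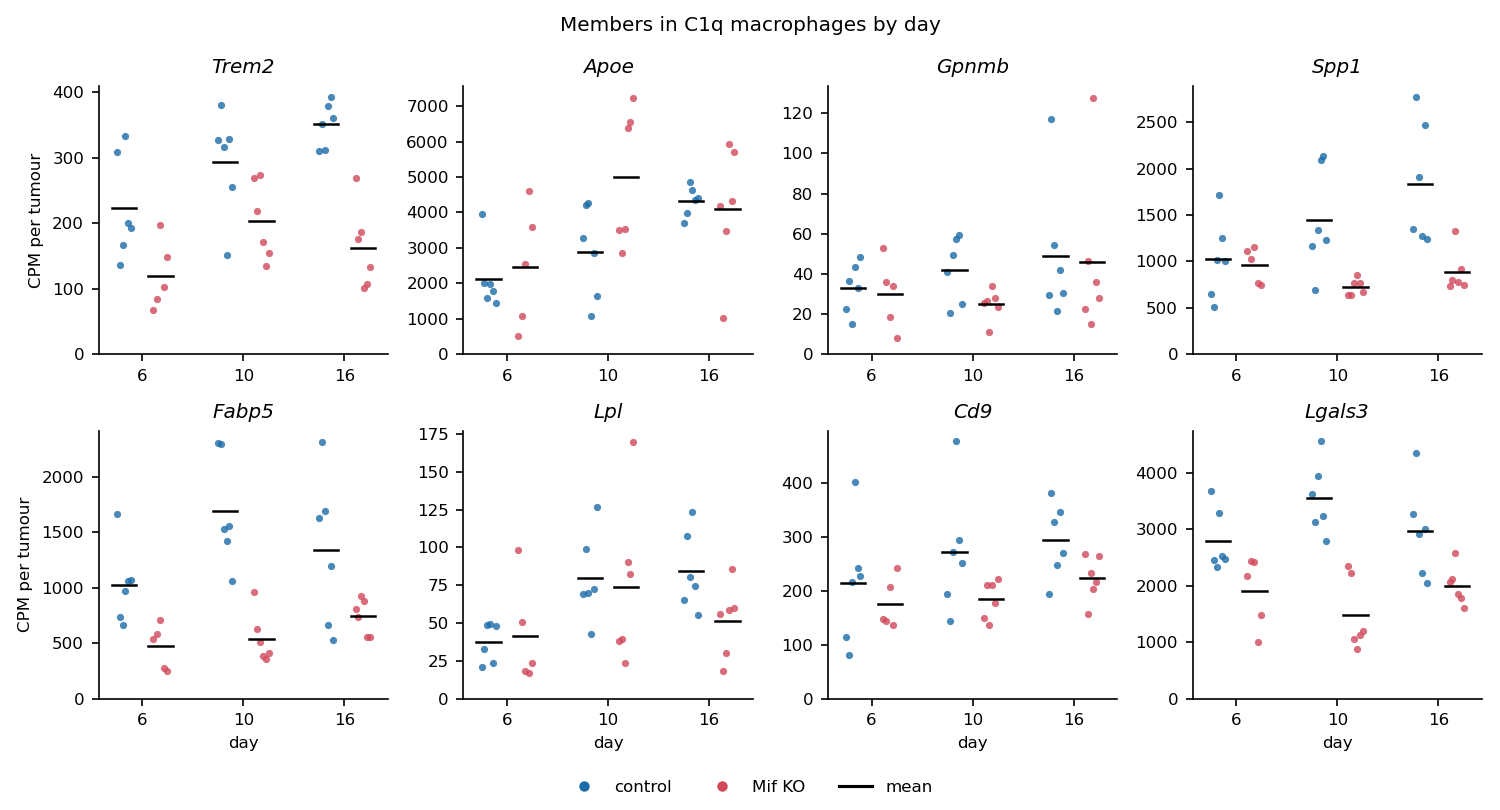
CPM of the 8 genes in C1q macrophages by day, with 1 point per tumour (control blue, knockout red) and a black bar for the mean of each group and day. Apoe and Trem2 lie higher at days 10 and 16 than at day 6, and the knockout means lie below the control means for Trem2 and Fabp5 at each day.

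The Cd9 call was lost in 7 of 14 alternatives (adjusted p 0.0507 to 0.495), among them those without line 15 (0.23), 19 or 24, and the Trem2 call was lost without line 15 (0.63, adjusted p = 0.0859), without line 19 (0.49, 0.0618), with at least 10 C1q UMIs per cell (0.43, 0.0681) and in the Fcrls cluster (0.42, 0.0818). Fabp5 (0.53, adjusted p = 0.0506), Spp1 (0.46, 0.0774), Lpl (0.67, 0.0977), Gpnmb (0.52, 0.336) and Lgals3 (0.15, 0.504) did not pass. Spp1 newly passed in 6 of 14 alternatives, among them those without line 19 (0.74, adjusted p = 0.0176) and in either cluster. Fabp5 passed in 5, among them DESeq2 (adjusted p = 0.0300) and the fit without line 18 (0.88, adjusted p = 0.00180), and Lpl in 2, of which 1 was without line 19 (1.19, adjusted p = 0.00658). Gpnmb passed with no filter on low counts (0.60, adjusted p = 0.0374) and changed sign without line 15 (-0.12). The difference in day effect between the groups was tested in an added fit (6133 genes; 2.25% called, 1.89% higher and 0.359% lower in the knockout group; 138 genes, and 20 to 103 leaving out 1 line), and none of the 8 members was called; the nearest were Spp1 (-0.96, adjusted p = 0.130) and Lpl (-1.36, adjusted p = 0.262). Spp1 was called in 3 of 14 alternatives, with no filter on low counts (-1.01, adjusted p = 1.286e-05), without line 18 (-1.53, adjusted p = 0.00452) and in the Chil3 cluster (-1.55, adjusted p = 0.00600). Lpl was called in 1, with no filter (-1.37, adjusted p = 0.0126), and Fabp5 in 1, without line 15 (1.26, adjusted p = 0.0438). Spp1 medians were 1004, 1287 and 1631 CPM at days 6, 10 and 16 in control tumours and 1025, 718 and 789 CPM in knockout tumours.

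Of 13 lysosomal genes 6 were higher at day 16, none was lower and 7 did not pass, with the membrane protein Lamp1 at 0.31. Of 8 genes of lipid uptake and storage 3 were higher (Lrp1 0.42, Acsl1 1.14) and 2 lower (Plin2 -0.50). The cholesterol exporter Abca1 was higher (0.74) and its relative Abcg1 lower (-0.69). None of the 7 TREM2 signalling and shedding genes passed the test. Among Spp1 receptors Itgb5 (0.52) and Itga9 (0.48) were higher and Cd44 was lower (-0.56). In the test between the groups' day effects, Abca1 (1.86, adjusted p = 0.00523), Itgav (1.51) and Cd44 (0.89) were called higher in the knockout group.

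Line cells of day 0 were compared with those of later days. Gpnmb and Lpl were 6.87- and 5.95-fold lower at days 6 to 16 than at day 0, while Apoe, Lgals3 and Cd9 were higher. The test set day 0 against the mean of the later days within lines (12483 genes), and 54.5% of genes were called, 25.7% higher and 28.8% lower; of the 8 members 3 were higher, 2 lower and 3 not called (median 0.05, all genes -0.02). Since day 0 tumours were only in single-line libraries, day 0 and those libraries can be told apart only through the later tumours of the same libraries.

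At day 0, Gpnmb in line 15 was 241 and 253 CPM, line 18 had 159, line 19 had 778 and 850.2, and line 24 had 504 and 501. Both knockout lines stood above both control lines. At days 6, 10 and 16 the medians were 46.5, 121 and 98.8 CPM in control tumours and 53.0, 51.4 and 61.2 CPM in knockout tumours. The day 0 difference was -2.78 (SE 0.24, adjusted p = 2.322e-12). Lpl at day 0 in line 15 was 15.3 and 17.3 CPM, line 18 had 24.9, line 24 had 22.4 and 24.3, and line 19 stood alone with 164.5 and 176.7. Later Lpl medians were 6.22, 5.65 and 3.59 CPM in control tumours and 12.4, 8.32 and 6.75 CPM in knockout tumours (-2.57, SE 0.15, adjusted p = 3.599e-17).

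Fabp5 and Spp1 were not called over all lines, and the groups went in opposite directions from day 0 to the mean of the later days. Without line 24 Fabp5 was called lower (-0.64, adjusted p = 0.0189), and without line 15 Spp1 was (-0.39, adjusted p = 0.0224). Fabp5 was 426.5 and 400.5 CPM at day 0 in line 15 and 482 in line 18, against 85.9 and 93.3 in line 19 and 52.7 and 49.6 in line 24. By day 16 the medians were 158 CPM in control and 123 CPM in knockout tumours: control values had gone down and knockout values up. Spp1 was 5177 and 4802 CPM at day 0 in line 15 and 6576 in line 18, against 13100 and 12130 in line 19 and 15930 and 15870 in line 24. At day 6 the medians were 3914 CPM (control) and 6362 CPM (knockout), and at day 16 they were 13220 and 10050 CPM.

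**Figure D4:**
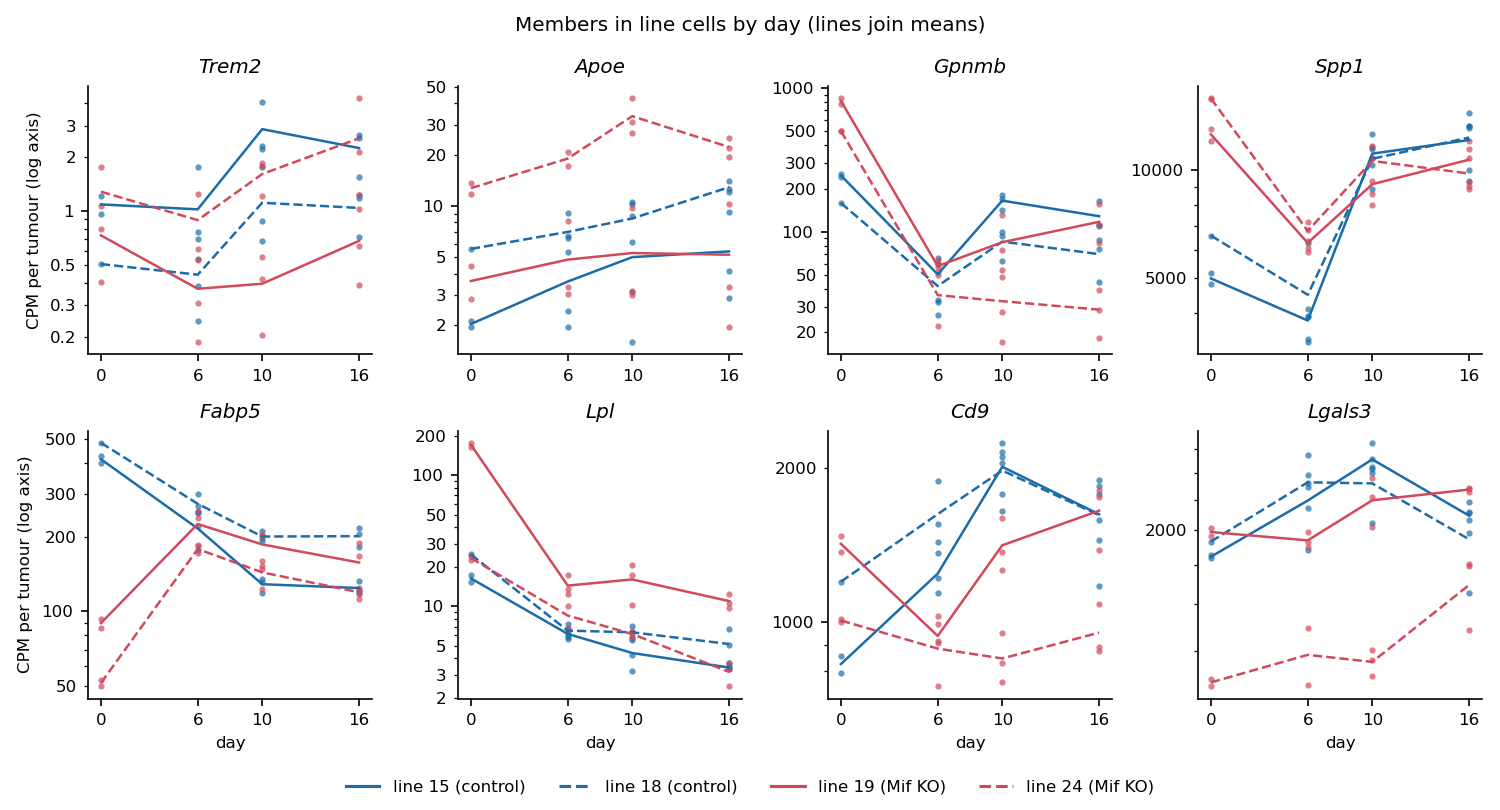
CPM (log axis) of the 8 genes in line cells by day, with 1 point per tumour and lines that join the means of each tumour line (15 and 19 solid, 18 and 24 dashed; control blue, knockout red). At day 0 the knockout lines lie above the control lines for Gpnmb and Spp1 and below them for Fabp5, and from day 6 the groups overlap.

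A test of this difference between the groups, chosen after the data were seen, gave for Fabp5 a change from day 0 that was 2.75 higher in the knockout group on the log2 scale (SE 0.16, adjusted p = 1.102e-15). The change was lower in the knockout group for Gpnmb (-2.27, SE 0.39, adjusted p = 8.552e-06), Spp1 (-1.13, SE 0.18, adjusted p = 3.431e-06), Lpl (-1.11, SE 0.28) and Cd9 (-0.82, SE 0.18). Of the 8 members 1 was thus called higher, 4 lower and 3 not called (median -0.78, all genes -0.07), where 44.3% of 13038 genes were called, 20.4% higher and 23.9% lower; without line 15 the number of called genes fell from 5770 to 2641. The Lpl difference rested on line 19 (-0.07, adjusted p = 0.853, without it) and was also not called without line 15 (-0.97, adjusted p = 0.191), and that of Cd9 was not called without line 15 (-0.56, adjusted p = 0.154).

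Apoe in line cells was 1.94 to 13.7 CPM at day 0 and 2.02-fold higher later (log2 1.01, SE 0.30, adjusted p = 0.00485), with a later median still under that of T-cell-like cells. The Apoe difference was not called without line 24 (0.92, adjusted p = 0.0733). Lgals3 was 1.27-fold higher (log2 0.35, SE 0.09, adjusted p = 0.00124) and Cd9 1.25-fold higher (log2 0.32, SE 0.12, adjusted p = 0.0237). The Cd9 call was lost without line 15 (0.11, adjusted p = 0.479) and without line 18 (0.29, adjusted p = 0.0583). The day 0 tumours held almost no macrophages, and 6 of 7 TREM2 signalling genes were higher in line cells of later days (Tyrobp 1.60), while C1qa, a macrophage gene, had a median of 4.20 CPM in control and 5.72 CPM in knockout line cells over all days; the part of free RNA in these differences was not tested.

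Of 13 lysosomal genes in line cells, 9 were lower after day 0, none was higher and 4 did not pass (Cd68 -1.80, Ctsl -0.81), and in the test between the groups all 13 were called lower in the knockout group (median -1.12; Grn -1.42, Lipa, the lysosomal acid lipase, -1.48). The MiT/TFE factors, which drive lysosomal genes and Gpnmb in melanocytic cells, were higher after day 0 in 3 of 3 (Tfe3 0.43), and between the groups 3 of 3 were lower in the knockout group (Mitf -1.05, Tfe3 -0.58). Of 8 efflux genes 5 were lower in that test (Pltp -1.75) and none higher. Among the Lpl partners Lipg was higher (1.74) and Angptl4 lower (-2.0).

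The members did not vary as 1 unit across tumours. Over the 35 C1q macrophage sums, Pearson's correlation of log2 CPM was highest for Fabp5 with Lgals3 (0.863), then Spp1 with Cd9 (0.736) and Trem2 with Fabp5 (0.584), and lowest for Apoe with Lgals3 (-0.367), among 28 pairs. These sums share lines, days and libraries, so the correlations describe them and carry no test. Among all 4922 genes tested, those most like Trem2 were Tmem37 (0.869), Pf4 (0.854) and Stab1 (0.853), and those most like Apoe were Cd33 (0.768), Zmynd15 (0.765) and Sat1 (0.752). Fabp5 was nearest to Ctsl (0.867), Adam8 (0.863) and Lgals3 (0.863), and Lgals3 to Adam8 (0.875), Fxyd5 (0.868) and Capg (0.865). Spp1 was nearest to Cd9, then Atxn10 (0.663) and Sypl (0.662), and Cd9 to Spp1, then Arl6ip5 (0.679) and Myadm (0.670). Gpnmb had Csf2ra (0.701), Grina (0.567) and Lonp2 (0.559), and Lpl had Nckap1l (0.743), Rheb (0.690) and Rpl19 (0.635).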

How the data were processed

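Live cells were sorted from tumours and run as 6 hashtagged 5′ libraries. For each library the authors deposited a matrix of raw UMI counts over genes and hashtags, made with Cell Ranger 6.0.0 on mm10 per the submitters' processing notes; the annotation version is not stated, and 32158 of 32285 gene IDs (99.6%) were in GENCODE M21. A cell was kept with 300 or more genes and up to 15% mitochondrial UMIs. Hashtags were called with HTODemux (Seurat 5.3.0), and hashtag doublets (17.9% to 30.9% of cells per library) were left out; doublets of 2 cells of the same tumour remain. 2 hashtags with almost no counts, 1 of line 18 (day 0) and 1 of line 24 (day 6), were left out. Clusters (scanpy 1.11.5) were made without the 8 genes and named from fixed markers with at least 3 detected; clusters 13, 19 and 22, mostly hashtag doublets, were left out, and cluster 5 stayed unnamed (15.95% of the singlets of line 24 and 0.17% to 0.52% of those of the others). Of 15670 macrophage- and monocyte-like singlets, 872 had 3 or 4 C1q UMIs, 1415 had 5 to 9, and 2276 passed neither gate for lack of monocyte UMIs. The monocyte genes were Ly6c2, Plac8, Ccr2, Vcan, Chil3 and F10.

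Counts were summed per tumour and class and tested with edgeR 4.0.16 in R 4.3.3 (filterByExpr, TMM, quasi-likelihood, Benjamini-Hochberg over all genes, 0.05), with day as a term between groups, line as a term between days, and tumour as a term between classes. Standard errors are the log2 fold change over the root of F. The scripts were tested on simulated data: of 200 genes changed by 1 on the log2 scale, 97.5% were recovered for the knockout comparison in C1q macrophages, 99.0% in monocytes and 96.0% in line cells. The simulated counts held no differences between lines or libraries, so this recovery does not show how calls fare where such differences exist. DESeq2 1.42.0 and the other alternatives are in the closing section. The 8 members, the related lists and the tests were chosen with earlier results of these data known. Named beside the members were, for each list and comparison, at most the 2 called genes of lowest adjusted p in each direction, and for each member the 3 genes of highest correlation. Nothing states that same-line tumours are separate animals, so p-values measure the spread between these samples. Some genes of the related lists are not reported here.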

Additional observations from a re-analysis of the deposited data

Results flagged for a closer look

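In 143 groups of 4 to 10 tumours of 1 line and class, 17 had a tumour that stood apart from the others by Dixon's test, which chance does in about 1 in 20 groups. Most of them were levels of Gpnmb, Lpl or Trem2, the members with few UMIs.

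In C1q macrophages, Gpnmb was 116.9 CPM in line 15 day 16 tumour B (next 54.5) and 127.6 in line 24 day 16 tumour A (next 36.1). Lgals3 was 4564 CPM in line 18 day 10 tumour A (next 3286) and low, at 1064, in line 19 day 10 tumour C (next 2061). Lpl was 98.6 CPM in line 19 day 6 tumour A (next 56.0).

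In monocytes, Gpnmb was 157.6 CPM in line 15 day 16 tumour B (next 69.3), the tumour that also stood apart in C1q macrophages, and 34.6 in line 18 day 16 tumour B (next 18.5). Lpl was 95.1 CPM in the same line 18 tumour (next 29.4) and 390.3 in line 19 day 10 tumour B (next 60.3), a sum of 38 cells in which Trem2 was also high, at 134.2 (next 62.3).

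In osteoclast-like cells of line 18 day 16 tumour A, a sum of 13 cells, Cd9 was 1399 CPM (next 908) and Fabp5 437.2 (next 291). In line cells of line 24 day 16 tumour A, Trem2 was 4.26 CPM (next 2.15). In T-cell-like cells, Apoe was 152.2 CPM (next 70.3) and Lpl 13.8 (next 4.18) in line 24 day 6 tumour A, Cd9 was 467.4 in line 18 day 6 tumour B (next 284), and Trem2 was 9.82 in line 15 day 6 tumour C, where all other tumours of the line were at 0.

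The change of line cells from day 0 to days 6 to 16 differed between the groups for 5 members, as given above: by 2.75 (log2) for Fabp5, -2.27 for Gpnmb, -1.13 for Spp1, -1.11 for Lpl and -0.82 for Cd9, by edgeR's quasi-likelihood test with Benjamini-Hochberg adjustment.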

How the results depend on the processing

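Of 1207 recomputed values of the members, 1017 kept their direction and their side of the threshold, 75 no longer passed it, 47 newly passed it and 68 changed sign. Counts of called genes moved with the treatment of libraries and lines. The knockout difference in C1q macrophages had 1873 called genes, against 463 with 1 sum per line, 292 with the mixed libraries alone, 246 with a library term, 720 in the Chil3 cluster, 397 in the Fcrls cluster and 565 to 2280 leaving out 1 line. Monocytes had 590 against 204, 96, 72 and 236 to 727. Line cells had 5846 against 0 with 1 sum per line by edgeR (1178 at an unadjusted p under 0.05), 176 with the mixed libraries alone, 1723 with a library term and 4149 to 7053 leaving out 1 line. Day 16 against day 6 had 990, against 405 and 524 in the Chil3 and Fcrls clusters and 226 to 1069 leaving out 1 line. C1q macrophages against monocytes had 2404, against 4167 with no filter on low counts, 1314 and 1562 in the clusters; osteoclast-like cells against C1q macrophages 3329, against 5260, 2075 in the Chil3 cluster and 2180 to 3329. Against T-cell-like cells, C1q macrophages had 3195, against 7215 with no filter and 2029 and 1782 in the clusters, and monocytes 1807, against 6296 with no filter and 2722 with more cells per sum. The group difference of the day effect in C1q macrophages had 138, against 221 with no filter, 59 with at least 10 C1q UMIs, 65 in the Chil3 cluster, 0 by edgeR in the Fcrls cluster (365 at an unadjusted p under 0.05) and 20 to 103 leaving out 1 line; DESeq2 on both clusters gave 163. That of line cells from day 0 had 5770, against 2641 to 5203 leaving out 1 line. Fits by cluster and without the cells of most UMIs were chosen after the data were seen.

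Apart from Apoe in line cells between the groups, the values that changed sign were not called in the fits reported. Leaving out 1 line at a time, the knockout difference spanned -0.25 to 0.94 for Apoe and -0.56 to 0.20 for Lpl in C1q macrophages, -0.64 to 0.015 for Apoe in monocytes, and -1.27 to 0.15 for Trem2, -0.32 to 1.90 for Apoe and -0.93 to 0.38 for Gpnmb in line cells. The day 16 difference of Gpnmb spanned -0.12 to 0.89, and the day 0 difference -0.059 to 0.51 for Trem2, -0.64 to 0.58 for Fabp5 and -0.39 to 0.15 for Spp1. Between classes, Gpnmb spanned -0.35 to 0.056 against monocytes and -0.38 to 0.43 in osteoclast-like cells, Spp1 -0.39 to 0.33 there, and Spp1 -0.26 to 0.11 and Cd9 -0.015 to 0.38 against T-cell-like cells. The group difference of the day effect in C1q macrophages spanned -0.63 to 0.38 for Trem2, -0.46 to 0.16 for Apoe, -1.31 to 1.10 for Gpnmb, -0.026 to 1.32 for Fabp5, -1.67 to 0.75 for Lpl, -0.65 to 0.45 for Cd9 and -0.071 to 0.63 for Lgals3, and in line cells from day 0 -0.16 to 0.30 for Apoe and -0.053 to 0.12 for Lgals3.

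Other settings also turned signs. The knockout difference of Lpl in C1q macrophages was 0.35 without the cells of most UMIs, and that of Gpnmb in line cells 0.11 with another hashtag call and 0.67 with 1 sum per line; Gpnmb against monocytes was 0.054 with DESeq2. In osteoclast-like cells, Spp1 was -0.030 with DESeq2, -0.017 with RLE scaling, -0.023 with no filter, -0.12 with more cells per sum, -0.44 without the cells of most UMIs, -0.62 against the Chil3 cluster and -0.076 with at least 5 UMIs of Ctsk and Acp5; Gpnmb was -0.039 with RLE scaling, -0.037 with no filter, -0.072 with a stricter cell filter, -0.048 with more cells per sum, -0.032 against the Fcrls cluster and -0.033 with at least 5 UMIs. Against T-cell-like cells, Spp1 was 0.057 with DESeq2, 0.035 with RLE scaling, 0.042 with no filter, 0.12 with a stricter cell filter, 0.049 with another hashtag call and 0.25 in the Chil3 cluster, and Cd9 -0.38 in the Fcrls cluster. The group difference of the day effect in C1q macrophages was, for Trem2, -0.041 with DESeq2, -0.0045 with no filter, -0.049 without the cells of most UMIs and -0.038 with at least 10 C1q UMIs; for Apoe 0.14 with more cells per sum and 0.31 and 0.52 in the Chil3 and Fcrls clusters; for Gpnmb 0.10 and for Lgals3 -0.077 in the Chil3 cluster. In line cells that of Apoe from day 0 was -0.062 with DESeq2 and -0.24 with another hashtag call. The cause was not tested. The replicate names are the lines, of which the groups share none, so no replicate numbers pair them. Comparisons of classes kept the tumour as a term. Control and knockout tumours of the same day shared a mixed library, except the line 24 tumour of day 16, which had no such control there. The fits of those libraries alone, which had no library term, and the fits with a library term are given above.

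Depth limits Trem2, Lpl and Gpnmb most: none of them passed the filter on low counts in monocytes between the groups, and their sums per tumour reach 0 UMIs in monocytes and T-cell-like cells.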
